A study of Mus musculus with 4 samples.

Results

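The nuclear genes of the mitochondrial respiratory chain were examined in mouse intestinal organoids and in the crypts from which they were grown. They were taken by gene name (Nduf, Uqcr, Atp5, Sdha to Sdhd, Cox4 to Cox8, Cycs and Cyc1) from a whole mouse genome array, which gave 124 of 41174 probes and 87 genes. Of these, 82 encode subunits of complexes I to V or cytochrome c. The other 5 carry such a name but encode no subunit (Ndufaf1, Ndufaf2, Atp5s, Atp5sl and Cox4nb) and are kept apart below. A test could be made for 82 of the 87 genes, 77 of them subunits, among 15541 genes tested.

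Crypts, epithelial pits where the stem cells of the gut reside, were isolated with EDTA from the small intestine of 2 mice. The organoids were grown for 1 week from part of each mouse's crypts, in Matrigel with EGF (10 to 50 ng/ml), Noggin (100 ng/ml) and R-spondin (500 ng/ml), and RNA of the other part was taken without culture. The strain, age and sex of the mice are not given in the sources used here. Organoid and crypt RNA of a mouse were hybridised together on an Agilent dual-colour array and again with the dyes Cy5 and Cy3 exchanged, which gave 4 arrays. Both arrays of a mouse hold the same pair of RNAs, so they were averaged, which leaves n = 2 mice. The organoid level over the crypt level is given on the log2 scale, as the mean ± SD of both mice unless an array is named. A gene is said to have fallen or risen if its adjusted p was under 0.05 in limma's moderated test against 0, with Benjamini-Hochberg adjustment over all genes tested.

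The respiratory chain passes electrons from NADH (complex I) and succinate (complex II) through ubiquinone to complex III, through cytochrome c to complex IV and on to oxygen. Complexes I, III and IV pump protons across the inner mitochondrial membrane, and complex V uses the gradient to make ATP. Each complex other than complex II also holds subunits encoded by mitochondrial DNA, and several nuclear subunits exist as paralogous isoforms that differ between tissues. In the intestinal epithelium, differentiated absorptive cells are known for their many mitochondria.

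The share of probes well above background was 51.5% to 61.7% in organoid channels and 53.8% to 67.3% in crypt channels. Saturated spots numbered 0 to 1 per array. Each of the 82 tested genes of the chain exceeded background in all 8 channels, and 64 of them lay above the 90th percentile of intensity. Other epithelial markers moved with the chain. Among tested absorptive enterocyte markers 15 of 18 fell and 1 rose, and their summed normalized intensity was 234495 to 340838 in organoid channels, against 782579 to 1006896 in crypt channels. Paneth cell markers fell in 7 of 7 genes (sum 74895 to 159337 in organoids, 439769 to 716551 in crypts) and goblet cell markers in 5 of 7 (80132 to 108591 in organoids, 340859 to 438214 in crypts). Leukocyte markers fell in 3 of 12 genes (11900 to 18365 in organoids, 57104 to 78176 in crypts). Smooth muscle and stroma markers fell in 1 of 6 genes (7340 to 8413 in organoids, 9553 to 12864 in crypts). Over all genes tested, 5.49% fell and 5.44% rose. The part of these cell types in the values below was not tested. In these bulk RNAs, fewer cells of a type and less RNA per cell cannot be told apart.

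Transcripts of the respiratory chain were mostly lower in organoids than in crypts, by a modest amount shared by all 5 complexes. Of the 82 genes tested, 22 fell and 0 rose, against 5.49% of all genes tested that fell and 5.44% that rose. Without adjustment, 57 of the 82 had a p under 0.05 by limma, as had 4298 of all 15541 genes tested. The 22 comprise 21 of the 77 subunits and Atp5sl. The count of 22 depended on the scaling: with arrays centred on their medians in place of loess no member fell or rose, and 224 genes of the whole array still passed. The other 60 genes did not pass the test, although 74 of the 82 had a mean below 0 and 59 were below 0 on all 4 arrays. Over all genes tested, 45.7% had a mean below 0, and 3370 of 15541 were below 0 on all 4 arrays.

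The median over the 82 genes was -0.46 (-0.43 in mouse 1 and -0.44 in mouse 2), beside 0.02 over all genes tested. Over the 77 subunits alone it was -0.48. With median centring, the median of all genes itself moved up by 0.14. The members' median was then -0.085, which is 0.25 below the median of all genes, compared with 0.49 below it under loess, and 64 of 82 members lay below the median of all genes, compared with 75 under loess. All 22 genes that fell under loess had means below 0 under median centring too, between -1.24 and -0.14. Among the 60 that did not pass, 24 members turned from below 0 under loess to above 0 under median centring, and 14 of these 24 were still below the median of all genes. Loess sets the ratio near 0 at every intensity, so values of the bright genes are given under both scalings. Members above the 90th percentile of intensity (64) had a median of -0.50 under loess, where all 1554 genes in that range had 0.01. Under median centring the same 64 had -0.088, and the 1554 had 0.36. The other 18 members had a median of -0.20 under loess and 0.053 under median centring. Of the 64, 20 fell under loess, and of the 18, 2 fell.

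**Figure D1:**
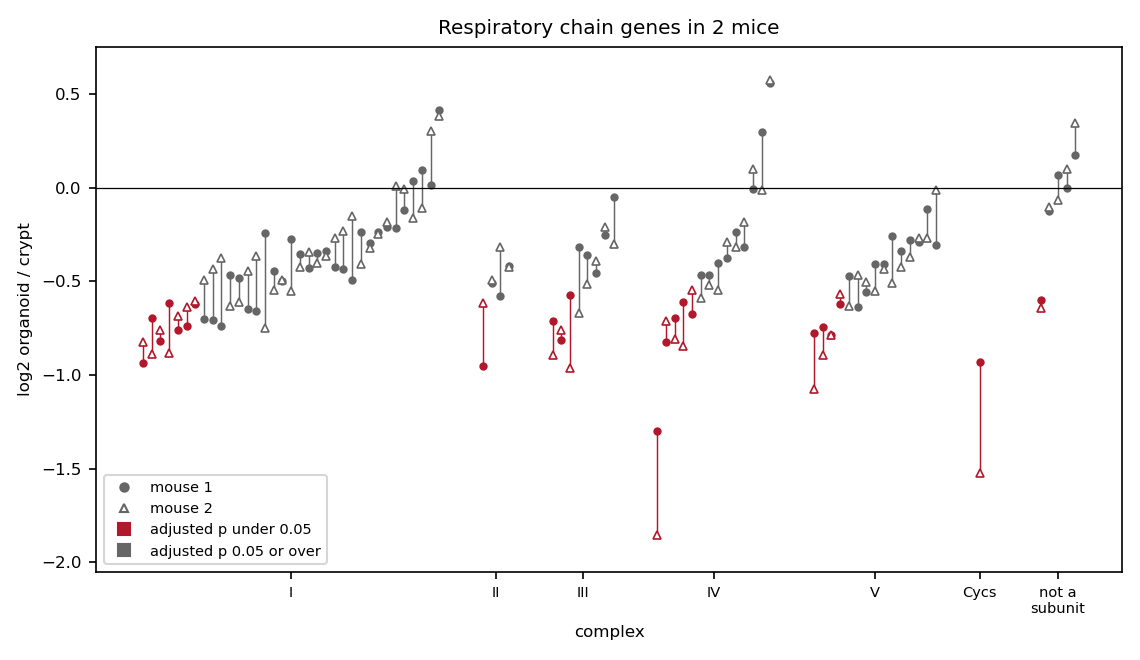
Log2 ratio of organoid over crypt (vertical axis) of the 82 tested genes, grouped by complex and ordered by their mean, with Cycs and the 5 genes that are not subunits apart. Filled circles are mouse 1, open triangles are mouse 2, a line joins the mice, and red marks the 22 genes with an adjusted p under 0.05, all of them below 0 in both mice.

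Complexes I to V had similar medians, and none stood at 0. The medians were -0.41 for complex I (35 genes), -0.47 for complex II (4), -0.47 for complex III (8), -0.48 for complex IV (14) and -0.48 for complex V (15). Genes that fell numbered 7, 1, 3, 5 and 4 in the same order. The 5 genes that are not subunits had a median of 0.00. The plot of all members by complex shows the same band of values below 0 in each complex, with a few genes far from it.

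Complex I takes electrons from NADH through a flavin and a chain of iron-sulfur clusters. Of its 7 tested core subunits, which hold these cofactors and the ubiquinone site, only Ndufv1 fell. Ndufv1 binds NADH and the flavin, and it had -0.71 and -0.53 on the arrays of mouse 1 and -0.81 and -0.40 on those of mouse 2, the first of each pair with the organoid in Cy5. Its mean was -0.61 ± 0.01 (adjusted p = 0.0442). All 4 arrays were below 0. The other 6 core subunits, among them Ndufs1 (-0.50 ± 0.07), Ndufs8 (-0.56 ± 0.26) and Ndufv2 (-0.20 ± 0.02), were below 0 on all 4 arrays and did not pass the test.

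Among the 28 tested supernumerary subunits of complex I, which surround the core and serve its assembly and stability, 6 fell. Ndufa5 had -0.87 and -1.01 in mouse 1 and -0.74 and -0.91 in mouse 2 (mean -0.88 ± 0.08, adjusted p = 0.0183). Ndufs5 (-0.79 ± 0.14) and Ndufb7 (-0.79 ± 0.04) followed. Ndufa1 (-0.75 ± 0.19), Ndufb10 (-0.69 ± 0.07) and Ndufa4 (-0.72 ± 0.06) also fell. The Ndufa4 product was named as a complex I subunit and was later assigned to complex IV. The spread between the 2 mice was smaller than the mean shift in each of these genes, which passing the test already requires.

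At the other end of complex I stood Ndufa7, a supernumerary subunit. It had 0.41 and 0.42 on the arrays of mouse 1 and 0.39 and 0.38 on those of mouse 2, so all 4 arrays were above 0. The mean was 0.40 ± 0.02, which did not pass the test (adjusted p = 0.120). A second probe for Ndufa7 had a mean of 0.39. Ndufa6 (0.16 ± 0.20) was the other complex I subunit with a mean above 0. Ndufs4 was not tested, because its brighter probe was marked on an array of mouse 1, and that probe had -0.33 in mouse 2.

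Complex II, succinate dehydrogenase, is the only complex whose subunits are all encoded in the nucleus, and it is shared with the citric acid cycle. Sdhb, the iron-sulfur subunit, had -0.99 and -0.91 in mouse 1 and -0.63 and -0.61 in mouse 2 and fell by 0.79 ± 0.24 (adjusted p = 0.0335). The flavoprotein subunit Sdha had -0.42 ± 0.00, and the membrane anchors Sdhc and Sdhd had -0.45 ± 0.18 and -0.50 ± 0.01. These 3 did not pass the test, and all 4 genes were below 0 on every array. A second probe for Sdha had a mean of -0.77.

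Complex III passes electrons from ubiquinol to cytochrome c. Uqcrb, a small subunit, had -0.71 on both arrays of mouse 1 and -0.86 and -0.93 in mouse 2 (-0.80 ± 0.13, adjusted p = 0.0243). The core subunit Uqcrc1 fell by 0.79 ± 0.04 (adjusted p = 0.0229). Cyc1, the cytochrome c1 that hands electrons to cytochrome c, fell by 0.77 ± 0.28 (adjusted p = 0.0399). Its arrays were at -0.47 and -0.68 in mouse 1, above the -1.07 and -0.86 of mouse 2. Uqcrh, the hinge protein, was the highest of the complex at -0.17 ± 0.18, with 0.42 and -0.51 on the arrays of mouse 1, and a second probe for it had a mean of 0.10. Its mean was above 0 under median centring (0.33), where the median of all genes was 0.17.

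Cycs encodes cytochrome c, the soluble carrier between complexes III and IV. Its normalized intensity was 25102 and 21268 in the organoid channels of mouse 1 and 15484 and 15354 in those of mouse 2. In the crypt channels it was 45396, 42879, 48467 and 40486, so organoid and crypt channels did not overlap. The log2 ratios were -0.85 and -1.01 in mouse 1 and -1.65 and -1.40 in mouse 2. The mean of -1.23 ± 0.42 corresponds to 2.34-fold lower in organoids (adjusted p = 0.0183), and the other 2 probes of the gene had -1.19 and -1.18. The shift was larger in mouse 2 for all 3 probes.

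Complex IV reduces oxygen to water, and it holds most of the chain's tissue-dependent isoforms. Cox7a1 is known as the isoform of heart and skeletal muscle. It was the lowest of all 82 genes. Its normalized intensity was 8477 and 8329 in the organoid channels of mouse 1 and 5621 and 5180 in those of mouse 2, against 21240, 20182, 19678 and 19299 in the crypt channels. The log2 ratios were -1.33 and -1.28 in mouse 1 and -1.81 and -1.90 in mouse 2. It fell by 1.58 ± 0.39, or 2.98-fold (adjusted p = 0.00888), and like Cycs it had a larger shift in mouse 2. Of 11 striated muscle markers examined, 4 were tested: Acta1, skeletal muscle actin, rose by 2.03 ± 0.45 and 0 fell. The summed intensity of the 4 was 2104 to 4128 in organoid channels and 947 to 1285 in crypt channels. The myoglobin gene Mb was well above background in none of the 8 channels, and the muscle creatine kinase gene Ckm in 1 of 4 organoid and 2 of 4 crypt channels. The part of muscle transcripts in the Cox7a1 value was not tested.

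The paralogues of Cox7a1 did not share its value. Cox7a2, the isoform of most tissues, had -0.32 and -0.61 in mouse 1 and -0.38 and -0.66 in mouse 2 (-0.49 ± 0.04, adjusted p = 0.0765). Cox7a2l, known in mouse as a factor that joins complexes III and IV in supercomplexes, had 0.46 and 0.66 in mouse 1 and 0.40 and 0.75 in mouse 2. Its mean of 0.57 ± 0.01 was the highest of all 82 genes and just missed the threshold (adjusted p = 0.0548). It passed under 4 alternatives, with adjusted p from 0.0103 to 0.0488, and missed it under the others, up to 0.343. Normalized intensities of Cox7a2l were 9311, 9868, 9451 and 11168 in organoid channels and 6778, 6248, 7185 and 6635 in crypt channels, which did not overlap.

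**Figure D2:**
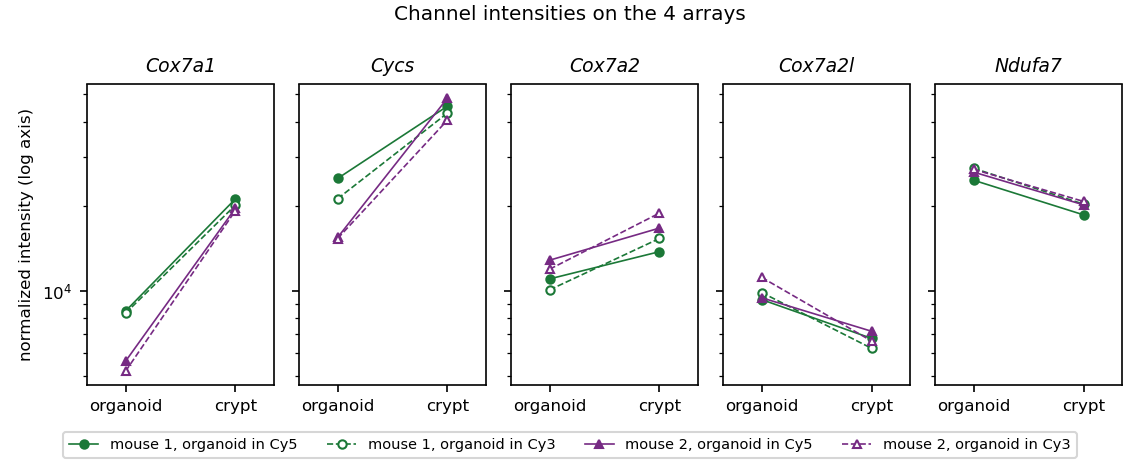
Normalized intensity (log axis) of 5 genes in the organoid and crypt channels of the 4 arrays. Circles are mouse 1 and triangles mouse 2, and each line joins the channels of an array (solid, organoid in Cy5; dashed, organoid in Cy3). All 4 lines go one way in each gene: Cox7a1, Cycs and Cox7a2 are lower in organoid channels, Cox7a2l and Ndufa7 higher.

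The probes for the 2 genes with the largest shifts are shown because the values rest on these letters. Both are printed 5′ to 3′ as deposited, with positions in mm9. The Cox7a1 probe lies at chr7:30970337-30970948 on the + strand and the Cycs probe at chr6:50515255-50515314 on the - strand. The Cox7a1 coordinates span more than the 60 bases of the probe. Exon and UTR annotation of mm9 was not used here.
Cox7a1 probe: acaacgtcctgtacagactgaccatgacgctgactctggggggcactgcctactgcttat
Cycs probe: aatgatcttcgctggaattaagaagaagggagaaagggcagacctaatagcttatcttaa

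The other isoforms of complex IV gave calls in Cox6a1 and Cox6b1. Cox6a1, the liver-type isoform, fell (-0.75 ± 0.08, adjusted p = 0.0267), but its arrays split by dye: -0.19 and -0.31 with the organoid in Cy5, and -1.20 and -1.31 with the organoid in Cy3. Its muscle-type paralogue Cox6a2 had 0.14 ± 0.22. Cox6b1 fell by 0.61 ± 0.09 (adjusted p = 0.0471), whereas the testis isoform Cox6b2 had -0.28 ± 0.06. Cox4i1 had -0.25 ± 0.09 under loess and 0.22 under median centring, where the median of all genes was 0.17. Its hypoxia- and lung-associated paralogue Cox4i2 was well above background in 1 of 4 organoid and 1 of 4 crypt channels and was not tested. Cox7b2, Cox8b and Cox8c were not well above background in any channel. Cox5a (-0.73 ± 0.16) and Cox5b (-0.77 ± 0.08), both part of the enzyme in all tissues, fell.

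Complex V, ATP synthase, showed its calls in the peripheral stalk and the membrane part other than subunit c, where 4 of 7 genes fell. Atp5k, subunit e, had -0.67 and -0.89 in mouse 1 and -0.91 and -1.24 in mouse 2 (-0.93 ± 0.21, adjusted p = 0.0205). Atp5j2, subunit f, fell by 0.82 ± 0.11. Atp5j, coupling factor 6 of the peripheral stalk, fell by 0.79 ± 0.00. Atp5o, the stalk protein that confers oligomycin sensitivity, fell by 0.60 ± 0.04. None of the 5 genes of the catalytic F1 part passed the test (median -0.38), nor did any of the 3 genes for subunit c, Atp5g1 (-0.48 ± 0.10), Atp5g2 (-0.16 ± 0.21) and Atp5g3 (-0.55 ± 0.11). Under median centring Atp5g2 stood at 0.25, and of the F1 genes Atp5a1 stood at 0.11, Atp5b at 0.11, Atp5c1 at 0.22 and Atp5e at 0.24. The median of all genes was then 0.17, so Atp5a1 and Atp5b still lay below it. Further probes for Atp5a1 (-0.61) and Atp5b (-0.73 and -0.52) lay lower than the probes that stood for these genes (-0.38 each). Further probes for Atp5j2 (-0.56), Atp5h (-0.46), Atp5f1 (-0.10 and -0.12) and Atp5g2 (0.06) lay higher than theirs, that for Atp5g2 above 0. Those at -0.56 and -0.12 were well above background in only 3 and 2 of 4 organoid channels. The difference between the parts of complex V was not tested.

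The dye orientation bears on these values. The ratio with the organoid in Cy5 exceeded that with the organoid in Cy3 by a median of 0.22 over the 82 genes and by 0.01 over all genes, and only 19 of the 82 had a gap below 0. Across the 82 genes the gap rose with intensity (Spearman's rho = 0.39), and the gaps of the 2 mice correlated with r = 0.72. These are descriptions across genes that share arrays. F1 genes were among those with wide gaps: their median was 0.02 and -0.12 with the organoid in Cy5 in mouse 1 and mouse 2, and -0.67 and -0.60 with the organoid in Cy3. Averaging the arrays of a mouse cancels a gap of equal size in both orientations. The members' median was -0.30 with the organoid in Cy5 alone and -0.56 with the organoid in Cy3 alone, and below the median of all genes in both.

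**Figure D3:**
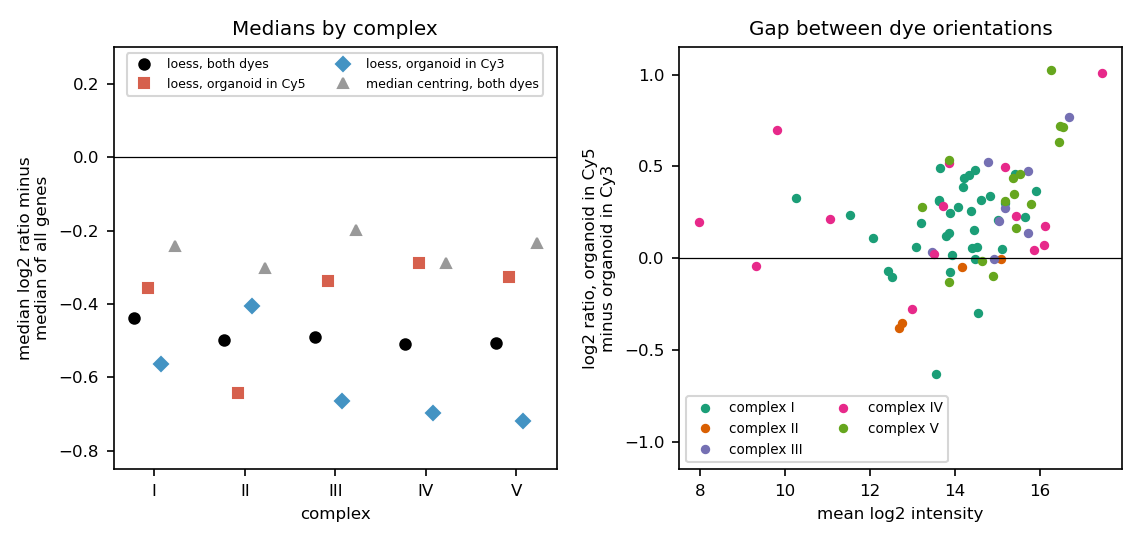
Left, median log2 ratio of each complex minus the median of all genes, under loess with both dyes, loess with the organoid in Cy5 or in Cy3 alone, and median centring. Right, gap between dye orientations of each subunit (mean of the 2 mice) against its mean log2 intensity. All complex medians lie below 0, nearest to it under median centring, and most gaps lie above 0.

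Members were also set against the median of all 82 on each array, a comparison added after the data were seen, in which a shift common to the chain cancels. By the same limma test, 4 members were lower than that median and 9 higher, 6 of the 9 being subunits, against 3.87% of all genes that were lower and 57.9% that were higher. Cox7a1 lay 1.14 below the chain's median (relative log2 -1.14 ± 0.38, adjusted p = 0.00837) and Cycs had a relative log2 of -0.79 ± 0.41 (adjusted p = 0.0192). Cox7a2l lay 1.00 ± 0.02 above it (adjusted p = 0.00615) and Ndufa7 0.84 ± 0.02 above it (adjusted p = 0.00869). The genes named here were the lowest and highest of these same values. Because most genes of the array passed in this comparison, the adjustment raised p less than it did in the test against 0. By limma, the unadjusted p of Cox7a1 was 0.000862 here and 0.000242 in the test against 0. Over the 12 settings run, the relative log2 of Cox7a1 ranged from -1.25 to -1.02 and that of Cox7a2l from 0.74 to 1.27, and both passed in all 12. Cycs passed in 10 of them and Ndufa7 in 11, and both missed the threshold under median centring (adjusted p = 0.104 and 0.0573).

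The 2 mice gave like orders of the members (r = 0.84, Spearman's rho = 0.80 across the 82 genes, which are not independent replicates). The median SD between the mice was 0.09 for members and 0.15 for all genes. Of 32 further tested probes in 25 of the genes, 3 had the opposite sign to the probe that stood for the gene. The median gap between probes of a gene was 0.08 and the widest was 0.41.

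Other genes of the mitochondrion were described from fixed lists. Probes for 2 of the 13 proteins encoded by mitochondrial DNA carried a name: the cytochrome b gene mt-Cytb, the catalytic subunit of complex III, fell by 0.83 ± 0.10 (adjusted p = 0.0215), and mt-Co2 of complex IV had -0.21 ± 0.13. Of 55 tested assembly factors of the complexes, 3 fell and 0 rose, with a median of -0.14. The share that fell was near the 5.49% of all genes tested, and 5.44% of all genes rose. The 3 that fell were Cox17 (-0.77 ± 0.27) and Sco1 (-0.64 ± 0.14), which deliver copper to complex IV, and Atp5sl, now named Dmac2, a complex I assembly factor (-0.62 ± 0.03). None of 78 mitochondrial ribosomal proteins passed by limma's adjusted p, and their median was -0.12. In the citric acid cycle, which feeds NADH and succinate to the chain, 4 of 14 enzymes fell and 0 rose, with a median of -0.50. Ogdh (-1.31 ± 0.31) and Dlst (-0.88 ± 0.10), subunits of the 2-oxoglutarate dehydrogenase complex, were the lowest of them.

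Among 8 genes that feed electrons to ubiquinone by other routes, Prodh, proline dehydrogenase, fell by 1.45 ± 0.08 and Gpd2, mitochondrial glycerol-3-phosphate dehydrogenase, by 0.62 ± 0.03. Sqor, which oxidises sulfide, rose by 0.78 ± 0.33. In ubiquinone synthesis 0 of 10 genes fell, and Pdss1 rose by 0.76 ± 0.20. Of 22 genes for import and membranes, the fusion gene Mfn2 fell (-0.74 ± 0.08) and the import receptor gene Tomm20 rose (0.71 ± 0.26). The shares over all genes tested were 5.49% that fell and 5.44% that rose.

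Regulators of mitochondrial biogenesis gave 2 falls and 1 rise among 19 tested, where 5.49% of all genes tested fell and 5.44% rose. Ppargc1a encodes PGC-1alpha, a coactivator of respiratory genes. It had -1.51 and -1.44 in mouse 1 and -2.09 and -1.95 in mouse 2, and fell by 1.74 ± 0.39 (adjusted p = 0.00677). Esrra, the nuclear receptor ERR-alpha that PGC-1alpha binds, fell by 0.74 ± 0.23. Myc rose by 0.78 ± 0.00. The mRNAs of the transcription factors Nrf1 (-0.10 ± 0.09), Gabpa (0.18 ± 0.01) and Yy1 (0.01 ± 0.00) and of the mitochondrial factor Tfam (-0.08 ± 0.15) did not pass the test. Of 11 tested hypoxia-responsive genes that act on mitochondria, 4 rose and 0 fell. Bnip3 (3.43 ± 0.09) and Bnip3l (1.26 ± 0.29) encode receptors for the removal of mitochondria, Egln3 (3.12 ± 0.48) an oxygen-sensing hydroxylase, and Pdk1 (1.89 ± 0.06) the kinase that switches off pyruvate dehydrogenase. Their part in the values of the chain was not tested.

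**Figure D4:**
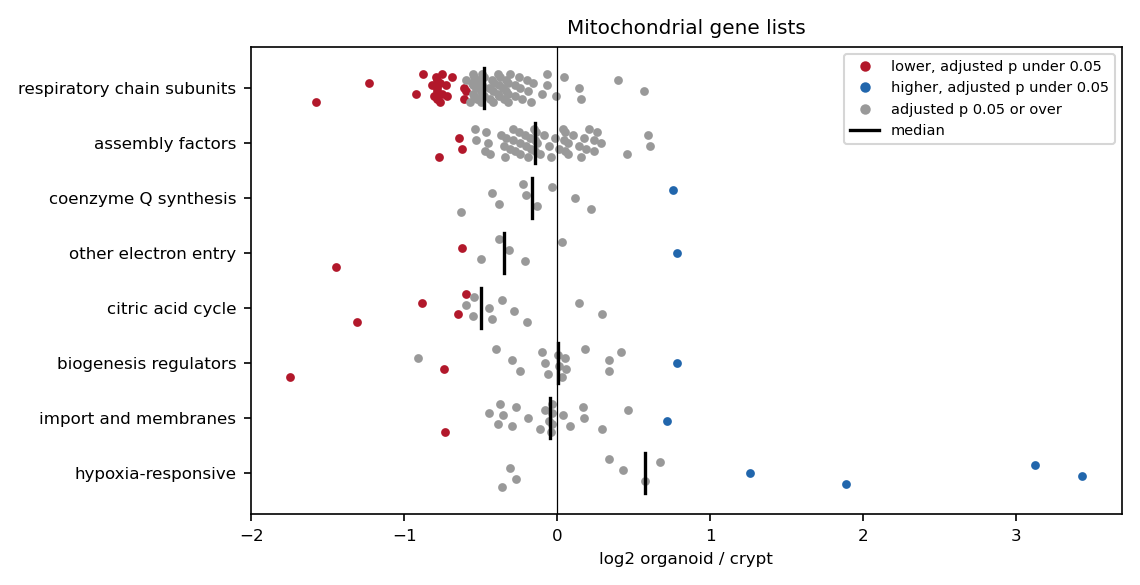
Log2 ratio of organoid over crypt of each tested gene in 8 lists of mitochondrial genes (mean of 2 mice). Black bars are list medians, red genes fell and blue genes rose (adjusted p under 0.05). Subunits and citric acid cycle genes have medians of -0.48 and -0.50, and assembly factors -0.14. The hypoxia-responsive list has 0.57, with 0.74 in mouse 1 and 0.11 in mouse 2.

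Promoters of the subunits were searched for the binding letters of factors known to act on respiratory genes, on both strands, in RefSeq's windows of 300 bases around the gene start (GRCm38.p6). Windows were matched for 67 of the 82 subunit genes (72 windows). The NRF1 core GCGCATGC was in 15.3% of subunit windows and 2.71% of all 32851 windows. The GABP letters CCGGAAG were in 22.2% and 8.86%, the YY1 letters AAGATGGC in 13.9% and 2.75%, the ERR-alpha letters TCAAGGTCA in 2.78% and 0.42%, and the hypoxia response core ACGTG in 25.0% and 19.6%. In the 21263 windows of protein-coding genes the shares were 3.52% (NRF1), 11.6% (GABP), 3.05% (YY1), 0.33% (ERR-alpha) and 20.9% (hypoxia response core). None of these motifs lies within another. The tested subunits with the NRF1 core had a median log2 ratio of -0.55 (11 genes), those without it -0.48 (53 genes), and this was not tested. The promoters below belong to the carrier and the complex III core gene that fell, both with the NRF1 core, and to the Cox7a isoforms at either end of the range. Capitals mark matches to any of the 5 motifs on either strand, printed 5′ to 3′ along the gene's strand.
Cycs, chr6:50566520-50566819, - strand: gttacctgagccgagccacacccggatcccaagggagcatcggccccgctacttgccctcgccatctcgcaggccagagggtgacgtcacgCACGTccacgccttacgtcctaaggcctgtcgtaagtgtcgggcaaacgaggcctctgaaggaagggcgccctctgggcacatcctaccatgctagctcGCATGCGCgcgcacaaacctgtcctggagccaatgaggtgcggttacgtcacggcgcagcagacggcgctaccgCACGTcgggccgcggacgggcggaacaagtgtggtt
Uqcrc1, chr9:108936398-108936697, + strand: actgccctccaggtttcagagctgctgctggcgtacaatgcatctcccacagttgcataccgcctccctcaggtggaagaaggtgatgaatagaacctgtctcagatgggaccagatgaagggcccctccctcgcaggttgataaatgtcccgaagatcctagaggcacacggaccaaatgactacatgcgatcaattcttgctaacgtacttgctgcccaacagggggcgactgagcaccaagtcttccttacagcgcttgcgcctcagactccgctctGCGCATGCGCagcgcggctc
Cox7a1, chr7:30183921-30184220, + strand: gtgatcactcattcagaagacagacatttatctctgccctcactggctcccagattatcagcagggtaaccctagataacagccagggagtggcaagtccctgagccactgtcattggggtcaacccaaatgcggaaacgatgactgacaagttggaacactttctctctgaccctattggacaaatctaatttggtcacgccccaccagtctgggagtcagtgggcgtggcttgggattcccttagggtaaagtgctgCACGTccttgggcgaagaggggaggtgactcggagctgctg
Cox7a2l, chr17:83514284-83514583, - strand: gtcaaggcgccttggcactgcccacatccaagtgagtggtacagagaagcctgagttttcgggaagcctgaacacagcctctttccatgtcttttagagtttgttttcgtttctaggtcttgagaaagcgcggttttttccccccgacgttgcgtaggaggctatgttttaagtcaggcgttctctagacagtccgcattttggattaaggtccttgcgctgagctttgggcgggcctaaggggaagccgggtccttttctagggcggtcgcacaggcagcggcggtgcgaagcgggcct

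The NRF1 core and the hypoxia response core occurred in the Cycs window, the NRF1 core in that of Uqcrc1 and the hypoxia response core in that of Cox7a1. The Cox7a2l window held none of the 5. A match describes the letters of a window and is not a binding site.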

How the data were processed

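Crypt and organoid RNA of 2 mice was measured on 4 dual-colour Agilent arrays with 45018 spots each. The authors deposited, per the file headers, scanner intensity values (mean signal and median local background per dye), a log10 ratio of Cy5 over Cy3 by the scanner software, and a matrix of log2 ratios with an array median of 0. The headers name Feature Extraction 10.2.1.3 and the submitters' processing notes 9.5.3. The labels name Trizol and the design text an RNeasy kit. Depth does not apply to arrays; the number of arrays limits precision.

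In R 4.3.3, limma 3.58.1 corrected background (normexp, offset 50), and arrays were normalized by loess with the 1639 controls at weight 0, spots with an outlier mark (161 to 197 per array) were dropped, spots of a probe were averaged, and each ratio was set as organoid over crypt from its dyes. The test took probes without a mark on any array and well above background in all channels of a tissue (21928). Genes were named by accession through RefSeq (24844 probes) or by the file, and the brightest probe stood for a gene. Mouse means were tested with lmFit and eBayes (two-sided, 1 residual and 4.18 prior degrees of freedom), and the fit was tested on simulated data. P-values set each mean against the spread between these 2 mice, drawn largely toward a spread pooled over all genes (prior SD 0.20).

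Named are all members that passed, the highest and lowest of each complex, known isoforms, the Sdh genes and, of other lists, the 2 largest changes each way among those that passed. Other genes were named after their values were seen. Members and lists were chosen with earlier results of these data known. Alternatives were other background corrections, scaling, filters, probe rules, dyes and fits. Protein lengths were not analysed here.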

Additional observations from a re-analysis of the deposited data

Results flagged for a closer look

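Of 38 genes of the chain examined over the 4 arrays, 1 had an array apart from the other 3. Ndufb7, a supernumerary subunit of complex I, was at -0.71 on the array of mouse 2 with the organoid in Cy5, and between -0.82 and -0.81 on the other 3. All 4 are below 0. Chance alone flags about 1 in 20 genes by this rule, and the 2 arrays of a mouse are not independent samples.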

How the results depend on the processing

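All 22 falls kept their direction under every setting run. Of named genes that did not pass, Uqcrh (0.33), Atp5g2 (0.25), Cox4i1 (0.22) and Cox8a (0.14) turned to above 0 under median centring, and Uqcrh (0.21) with the organoid in Cy5 alone. Under median centring the median of all genes was 0.17. The number that passed did not hold. It was 0 with median centring, 6 with the scanner software's own ratios, 4 with the deposited matrix, 4 when dim probes were kept, 12 with the organoid in Cy5 alone, 51 in a fit of 4 arrays with dye as a term, and 39 when the mouse was a random block (replicate block, correlation 0.17). It was 20 to 24 with no background subtraction, all 8 channels, the mean over probes or the organoid in Cy3 alone. Of all 15541 genes, 1699 passed in either direction in the main fit. With median centring 224 passed, with scanner ratios 1436, with the matrix 1446, and with dim probes kept 678 of 28561. With the organoid in Cy5 alone 2196 passed, with dye as a term 3709, under the block 3080. The last 4 settings gave 1826, 1608 (of 14387), 1555 and 909. Members that rose numbered 1 without background subtraction, 1 with the organoid in Cy3 alone, 2 with dye as a term and 2 under the block. The fits on 4 arrays treat dye swaps as samples. Only Ndufa5 fell in 10 of 11 alternatives, failing under median centring. Cox6a1 alone was lost under the block.

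The median over members was -0.085 with median centring, -0.51 with scanner ratios, -0.45 without background subtraction, -0.48 with the matrix, -0.43 without the filter, -0.45 with the mean over probes, -0.30 with the organoid in Cy5 and -0.56 with it in Cy3. Leaving out a mouse gave -0.44 to -0.43. For complexes I to V it was -0.074, -0.14, -0.030, -0.12 and -0.067 with median centring, -0.33, -0.62, -0.31, -0.26 and -0.30 with the organoid in Cy5, and -0.54, -0.38, -0.64, -0.68 and -0.70 with it in Cy3. It was -0.39 (I) and -0.55 (II) with the mean over probes, -0.31 (IV) without the filter and -0.55 (V) with scanner ratios. Without a mouse it was -0.43 to -0.41 (I), -0.54 to -0.46 (II), -0.59 to -0.41 (III), -0.53 to -0.43 (IV) and -0.50 to -0.41 (V). The filter's effect includes the larger number of genes tested (28561). The cause of the others was not tested. One mouse alone gives no test.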
